A study of Rattus norvegicus with 4 samples.

Results

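Footpad skin collected on Day 6 of an irradiation course was set against footpad skin collected on Day 0, gene by gene. The comparison takes 2 of the 4 libraries of the study. Members are all genes with a count in either library, which gave 16954 genes or entries of 18957 in the study, and 16870 of them stood outside a list of skeletal muscle genes that was set aside as sample content. Both libraries came from the hindlimb of Sprague Dawley rats, an outbred stock used here to model radiation dermatitis. The Day 6 skin had received 40 Gy by the protocol, as 10 Gy of 9 MeV electrons at 500 cGy/min on each of Days 1, 2, 4 and 5, so it was taken 1 day after the last fraction. The Day 0 skin had received none. The labels are not uniform: the Day 6 description names irradiation on Day 4 alone, and the Day 0 description names Day 1 as the day of extraction. Sex, time of day and the number of animals behind a library are not stated.

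Skin is built of an epidermis of keratinocytes over a dermis of fibroblasts, collagen and vessels. Basal keratinocytes divide, move upward, change their keratins and end as a cornified layer sealed by crosslinked proteins and by lipids made from cholesterol, fatty acids and ceramides. Ionizing radiation breaks DNA and activates p53, which switches on genes that stop the cell cycle or start cell death, and footpad skin also holds eccrine sweat glands and lies close to fat and muscle.

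Transcripts were counted through 21-base tags that start at a CATG site, and a count is the number of copies of all tags that stand under a gene. The Day 6 library held 1967902 gene counts over 14972 genes and the Day 0 library 1982608 over 15236. With 1 library a day there is neither a replicate error nor a test between animals, so each ratio is Day 6 over Day 0 with an exact 95% interval for counting error only. A gene is called higher or lower here when the scaled counts differ at least 2-fold, the higher library has at least 50 counts and the interval leaves out 1. Of 5255 genes with enough counts, 396 were higher on Day 6, which is 7.54%, and 654 were lower, which is 12.4%. At 5-fold or more, 39 were higher and 89 lower, and at 10-fold or more 11 were higher and 28 lower. The median log2 ratio over all genes was 0.03. Each list count below is to be read beside the shares over all genes, 7.54% higher and 12.4% lower.

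**Figure D1:**
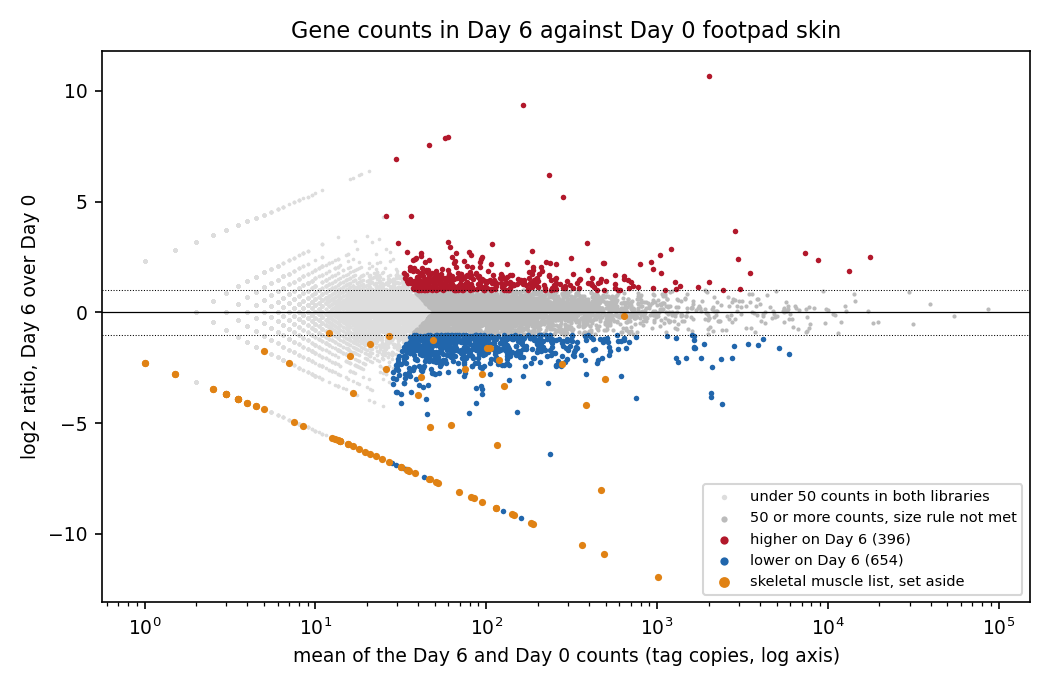
The log2 ratio of Day 6 over Day 0 (y axis) is plotted against the mean of both counts (x axis, log scale), 1 point for each gene, with dotted lines at 2-fold. The 396 higher genes are red, the 654 lower genes are blue and the skeletal muscle list is orange, nearly all of it below the 2-fold line.

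The Day 6 library stands apart from the others in what tissue it holds. Skeletal muscle genes made up 0.0582% of its gene counts and 0.668% of those of the Day 0 library, and 1.17% and 1.33% on Day 3 and Day 9. Of 41 members of the muscle list with at least 50 counts, 40 were lower on Day 6 and 24 of these had no count there. Over the whole list 59 members had no Day 6 count, 47 of them without a single copy even among tags seen once. Atp2a1, the calcium pump of fast muscle fibres, had 3 counts on Day 6 against 933 on Day 0. Myh1, a fast myosin heavy chain, had 0 against 730, at least 236-fold lower. With the list kept in, the lower genes number 694 in place of 654, and the higher genes remain 396.

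Sweat gland genes were also lower in the Day 6 library, while fat genes were mixed. Of 6 sweat gland and simple epithelium genes at the count floor, 5 were lower and the list had a summed 148 CPM (counts scaled to a common library size) on Day 6 against 459.6 on Day 0. Atp1b1, a subunit of the sodium pump, had 9 counts on Day 6 against 165 on Day 0, and Krt18, a keratin of simple epithelium, had 0 against 21. Of 10 adipocyte genes 4 were lower and 1 was higher. Car3, a carbonic anhydrase of fat and muscle, had 251 counts on Day 6 against 4534 on Day 0 and was 17.5-fold lower. Without Car3, a sum taken after its values were seen, the adipocyte list held 1352 CPM on Day 6 against 1373 CPM on Day 0. Adipoq, the fat hormone adiponectin, had 35 and 41 counts, a ratio of 0.88 (0.54 to 1.41), and Fabp4, a fatty acid carrier of fat cells and capillaries, was the higher member at 2.35-fold (1.91 to 2.91). The pigment cell markers Pmel and Tyrp1 had 2 and 0 counts on Day 6 against 31 and 33 on Day 0, and no gene of their list reached the count floor. In a bulk sample such as this one, fewer cells of a type and less RNA in each cell cannot be told apart.

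**Figure D2:**
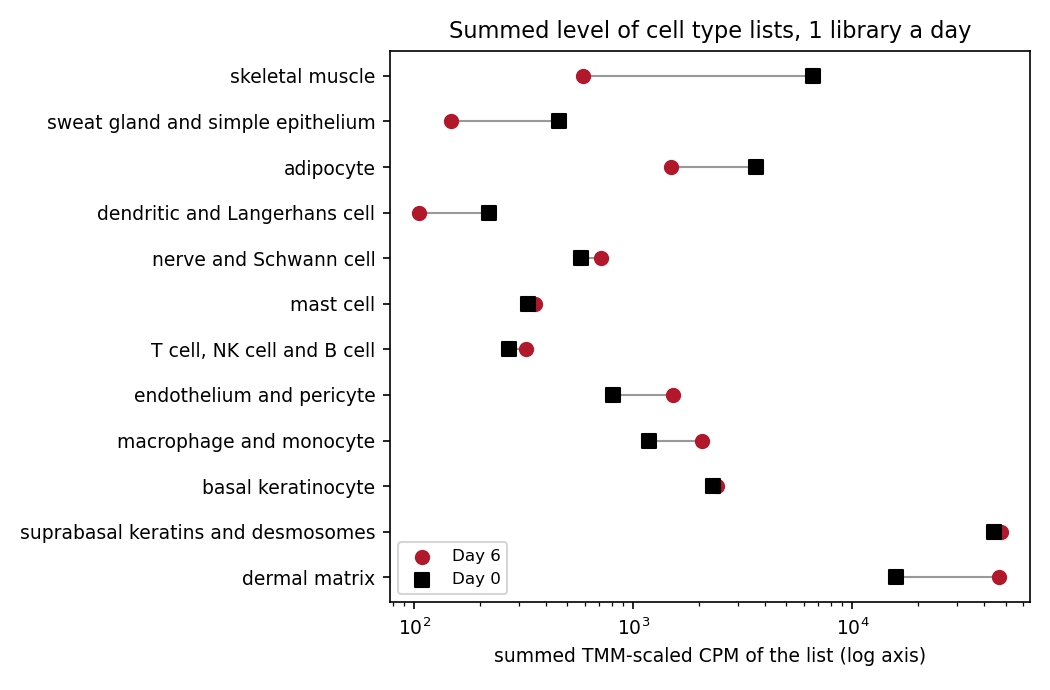
Summed scaled CPM of cell type lists (x axis, log scale) in the Day 6 library (red circles) and the Day 0 library (black squares). The muscle list sums to 588.8 on Day 6 and 6607 on Day 0, while the basal keratinocyte list sums to 2409 and 2316 and the dermal matrix list to 46864 and 15824.

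The label of the tissue holds for both libraries in its main markers. Krt1, a keratin of the suprabasal layers, had 38510 counts on Day 6 and 21013 on Day 0, and Krt14, a keratin of basal cells, had 319 and 295. Flg, the filaggrin of the granular layer, had 260 and 247 counts, and Vim, the filament of fibroblasts and other mesenchymal cells, had 3575 and 3640. The ratios of the last 3 were close to 1, at 1.11 (0.95 to 1.31), 1.08 (0.91 to 1.30) and 1.01 (0.97 to 1.06). Krt9, the keratin of footpad epidermis, was an exception, with 6 counts on Day 6 against 153 on Day 0.

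Genes that p53 switches on were often higher on Day 6. Of 24 measured targets 9 were higher, 2 were lower and 13 met neither side of the rule, and the median log2 ratio was 0.71. The share higher was 37.5% against 7.54% over all genes, and the share lower 8.33% against 12.4%. Ccng1, cyclin G1, reached 912.5 CPM on Day 6 against 151.2 CPM on Day 0. Cdkn1a, the p21 brake on the cell cycle, reached 669.4 CPM against 145.2 CPM. Plk2, a polo-like kinase, had 59 counts against 0, at least 20.3-fold higher, and 71 and 3 counts on Days 3 and 9. Mdm2, the ligase that returns p53 to a low level, had 125 counts against 30 and was 4.24-fold (2.86 to 6.62) higher, through 3 tags that were each more abundant on Day 6. Bax, which opens the mitochondrial outer membrane in cell death, had 110 counts against 38 and was 2.95-fold (2.04 to 4.43) higher. Phlda3, an inhibitor of Akt signalling, was 2.87-fold (2.48 to 3.34) higher and Gadd45a, a DNA damage sensor, 2.56-fold (1.61 to 4.30). Other targets stayed nearer to 1: Perp, a desmosome protein abundant in epidermis, had a ratio of 1.11 (1.07 to 1.15), Ccnd1 0.91 (0.81 to 1.005) and Btg2 1.64 (1.39 to 1.93). Plk3, another polo-like kinase, was among the lower members, with 62 counts on Day 6 against 132 on Day 0.

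Cdkn1a was read through 2 forms of 1 tag that differ by a single base, and the libraries do not carry the same forms. They are shown because they carry most of the gene's count, with the base that differs in capitals after the CATG site.
Cdkn1a, first form: CATGtattttggtcccTtccc
Cdkn1a, second form: CATGtattttggtcccCtccc
The substitution is T17C, counted from the first base of the tag. The first form had 1206 copies on Day 6 and the second none. On Day 0 the forms had 118 and 142 copies. The Day 3 library was the reverse of Day 6, with 0 and 1100 copies, and the Day 9 library held 457 and 397. The Cdkn1a count sums both forms. The other 2 tags of the gene listed, with no such partner, had 50 and 47 copies on Day 6 against 23 and 8 on Day 0.

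Of 22 cell death and survival genes 3 were higher and 1 was lower, with a median log2 ratio of 0.25. Bax and Bbc3, which are p53 targets as well, were 2 of the higher genes. Bbc3, the death protein PUMA, had 194 counts on Day 6 against 23 on Day 0. Casp4, an inflammatory caspase, was 2.52-fold (1.55 to 4.34) higher, and Gsdma, a gasdermin of differentiating epidermis, had a ratio of 1.92 (1.55 to 2.40). The lower member was Bcl2l1, which holds back cell death, with 20 counts on Day 6 against 92 on Day 0, 4.38-fold (2.73 to 7.65) lower. Among 20 DNA repair genes 2 were lower, a share of 10% that was near the 12.4% over all genes. None was higher, and the median log2 ratio was 0.04. The 2 lower genes are enzymes that remove wrong bases: Tdg was 3.53-fold (2.38 to 5.50) lower and Ung 2.20-fold (1.59 to 3.11) lower. The call of Ung ends when ratios are centred by the G and C content of tags.

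Few cell division genes passed the rule. The share higher on Day 6 was 13.3% in the mitosis list and 7.14% in the replication list, against 7.54% over all genes. The share lower was 0% and 3.57%, against 12.4%. Among 15 mitosis genes, 2 were higher, 13 met neither side of the rule and none was lower, with a median log2 ratio of 0.29. Spc25, a kinetochore subunit, had 55 counts on Day 6 against 21 on Day 0 and was 2.66-fold (1.60 to 4.69) higher. Of 28 DNA replication genes 2 were higher and 1 was lower, with a median of 0.37. The higher pair were clamp loader subunits, Rfc4 at 2.32-fold (1.63 to 3.39) and Rfc2 at 2.43-fold (1.49 to 4.20). Pcna, the sliding clamp that they load, had 270 counts against 186, a ratio of 1.49 (1.24 to 1.81), and Dut, which keeps uracil out of DNA, had a ratio of 1.92 (1.52 to 2.45). The Day 3 levels of Pcna and Spc25 were below those of both days: Pcna stood at 92.8, 68.0, 138.7 and 61.8 CPM on Days 0, 3, 6 and 9, and Spc25 at 10.5, 5.46, 28.3 and 10.5 CPM. Hist1h2bh, a histone gene, was 2.21-fold (1.58 to 3.18) higher on Day 6, 1 of 2 higher members among 8 histone genes.

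In the epidermis, genes of the basal layer differed little. Of 13 measured 1 was lower, and the median was -0.13. Cdh3, the cadherin P of basal cells, was 2.33-fold (1.55 to 3.65) lower, while Itgb4, an integrin of the hemidesmosome, had 1611 counts on Day 6 against 838 on Day 0 and fell just short of the rule at 1.98-fold (1.82 to 2.15). Col17a1, its partner in the same structure, went the other way with a ratio of 0.61 (0.54 to 0.69). Tp63, the regulator of epidermal identity, had a ratio of 0.57 (0.51 to 0.64).

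Suprabasal genes had 5 lower and no higher members among 17, with a median of -0.32. Krt24, a keratin gene, had 295 counts on Day 6 against 3841 on Day 0 and was 12.6-fold (11.2 to 14.3) lower. Dapl1, an early marker of differentiation, had 453 counts against 2190 and was 4.69-fold (4.24 to 5.21) lower. Jup, the plakoglobin of desmosomes, was 3.00-fold (2.77 to 3.26) lower and Klf4, a transcription factor of barrier formation, 2.39-fold (2.21 to 2.58) lower. The abundant pair of keratins split: Krt1 had a ratio of 1.89 (1.86 to 1.92) and its partner Krt10 of 0.75 (0.73 to 0.77). Among 26 epidermal transcription factors 4 were lower, 15.4% against 12.4% over all genes, and none was higher. Besides Klf4 the lower ones were Tfap2b, Rarg and Irx4, at 3.25-fold, 2.72-fold and 4.24-fold lower.

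Cornified layer genes changed in both directions, with 6 higher and 3 lower of 30. The higher group held proteases and a protease inhibitor. Csta, cystatin A, was 3.15-fold (2.77 to 3.59) higher, Blmh, the hydrolase that breaks down filaggrin to amino acids, 3.34-fold (2.63 to 4.31), Ctsl1, a cathepsin, 2.29-fold (2.05 to 2.57), and Klk13, a kallikrein, 2.43-fold (1.76 to 3.44). Lce1f, an envelope protein, had 2366 counts on Day 6 against 1088 on Day 0. Lower were Sprr1a, Tgm1 and Lypd3. Cers3 and Elovl4, which make barrier lipids, had ratios of 0.99 (0.80 to 1.23) and 0.96 (0.70 to 1.31), and Spink5, an inhibitor of kallikreins, had 1.01 (0.94 to 1.09).

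Alarm genes of injured epidermis were often higher on Day 6. Of 13 measured 6 were higher, 46.15% against 7.54% over all genes. Another 1 was lower, and the median log2 ratio was 0.89. Defb4, an antimicrobial defensin, had 551 counts against 15 on Day 0, and LOC683313, listed in the files as keratin 6A, had 5316 against 432. Krt16, the usual partner of keratin 6, had 37 counts against 0, at least 12.7-fold higher but under the count floor, while Krt17, another keratin of this group, had 262 against 499, a ratio of 0.54 (0.46 to 0.63). Arg1, arginase, was 5.89-fold (3.28 to 12.3) higher, Gjb2, a connexin, 2.76-fold (2.45 to 3.13) and Serpinb3, a serpin of stressed squamous epithelium, 2.82-fold (2.25 to 3.58). The S100 alarm genes did not follow: S100a9 had 34 counts on each day, and S100a8 had 10 on Day 6 against 39 on Day 0. Il1b had 5 and 6 counts and Cxcl1 had none on either day. Of the wider S100 and annexin list none of 18 was higher and 3 were lower, among them Anxa2, a membrane-binding annexin, 4.14-fold (3.77 to 4.55).

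Protease inhibitors of the cystatin, serpin and WAP families had 6 higher and 3 lower members among 21. Serpina3n, an acute-phase protease inhibitor, was 2.42-fold (2.09 to 2.83) higher and stood at 121.8, 63.1, 295.4 and 62.9 CPM on Days 0, 3, 6 and 9, so that the Day 6 library was the high one. Wfdc18 was 2.15-fold (1.95 to 2.37) higher and Wfdc1 2.51-fold (1.90 to 3.37), and Serpinb2 was 2.43-fold lower.

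Genes of the dermal matrix held more higher members by number than any other list measured here, 16 of 41, with 1 lower and a median log2 ratio of 0.64. Those 16 are a share of 39.0%, against 7.54% over all genes, 46.15% in the alarm list and 39.1% among matrix enzymes. The summed level of the dermal matrix list was 46864 CPM on Day 6 against 15824 CPM on Day 0. Sparc, a collagen-binding glycoprotein, had 29973 counts on Day 6 against 5407 on Day 0, the largest gain in CPM of any gene outside the muscle list. Col1a1 had 12663 counts against 2001 and Col3a1, another fibrillar collagen, 14463 against 2909. The 4 most abundant tags of Col1a1 each had more copies on Day 6, the first 2 with 8772 and 3089 copies against 1548 and 297 on Day 0. The partner chain Col1a2 had a ratio of only 2.00 (1.87 to 2.14), from 2527 counts against 1301. Elastic fibre genes were higher as well, with Eln, elastin, at 4.65-fold (3.95 to 5.52), Fbn1, fibrillin, at 5.32-fold (3.63 to 8.25) and Mfap4, a microfibril protein, at 2.62-fold (2.05 to 3.39). So was Vcan, versican, a proteoglycan of loose matrix, at 4.57-fold (3.36 to 6.45). Small proteoglycans and basement membrane genes stayed closer: Dcn, decorin, had a ratio of 1.79 (1.75 to 1.84), Lum 0.88 (0.75 to 1.03), Col4a1 1.24 (0.93 to 1.66) and Col7a1 0.84 (0.67 to 1.06). Fn1, fibronectin, had a ratio of 0.66 (0.56 to 0.78). The lower member was Comp, a matrix protein of tendon and cartilage, with 13 counts against 176, 12.7-fold (7.49 to 25.2) lower. The losses of muscle and sweat gland genes described above run beside these gains, and their part in the result was not tested.

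Enzymes that process the matrix had 9 higher and 2 lower members of 23. Lox and Loxl2, which crosslink collagen and elastin, had 106 and 50 counts on Day 6 against 23 and 2 on Day 0, and Lox was 4.66-fold (3.00 to 7.81) higher. Bmp1, which trims procollagen, was 3.36-fold (2.29 to 5.18) higher. Mmp2, a gelatinase, had 4967 counts against 975 and Timp2, an inhibitor that binds it, 2864 against 1140. Mmp14, the membrane protease that activates Mmp2, went the other way with 11 counts against 73, 6.21-fold (3.40 to 13.5) lower. Ppib, a folding enzyme of procollagen, was 2.39-fold lower, from 371 counts against 914.

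Secreted signals divided. Of 35 growth factor and signalling genes 6 were higher and 4 lower, or 17.1% and 11.4%, against 7.54% and 12.4% over all genes. Fstl1 and Wisp2, secreted by fibroblasts, were 4.58-fold (3.67 to 5.82) and 4.81-fold (3.66 to 6.50) higher. Notch1, the receptor of keratinocyte differentiation, was 3.27-fold (2.49 to 4.39) higher and Angpt2, which loosens vessel walls, 3.09-fold (1.89 to 5.41). Vegfa, the vessel growth factor, had 9 counts on Day 6 against 62 on Day 0, 6.40-fold (3.31 to 15.3) lower, and is not called on its most abundant tag alone. Ctgf, a target of TGF-beta and YAP, had a ratio of 0.51 (0.44 to 0.59), and Tgfb1 had 48 and 56 counts, a ratio of 0.88 (0.59 to 1.32).

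**Figure D3:**
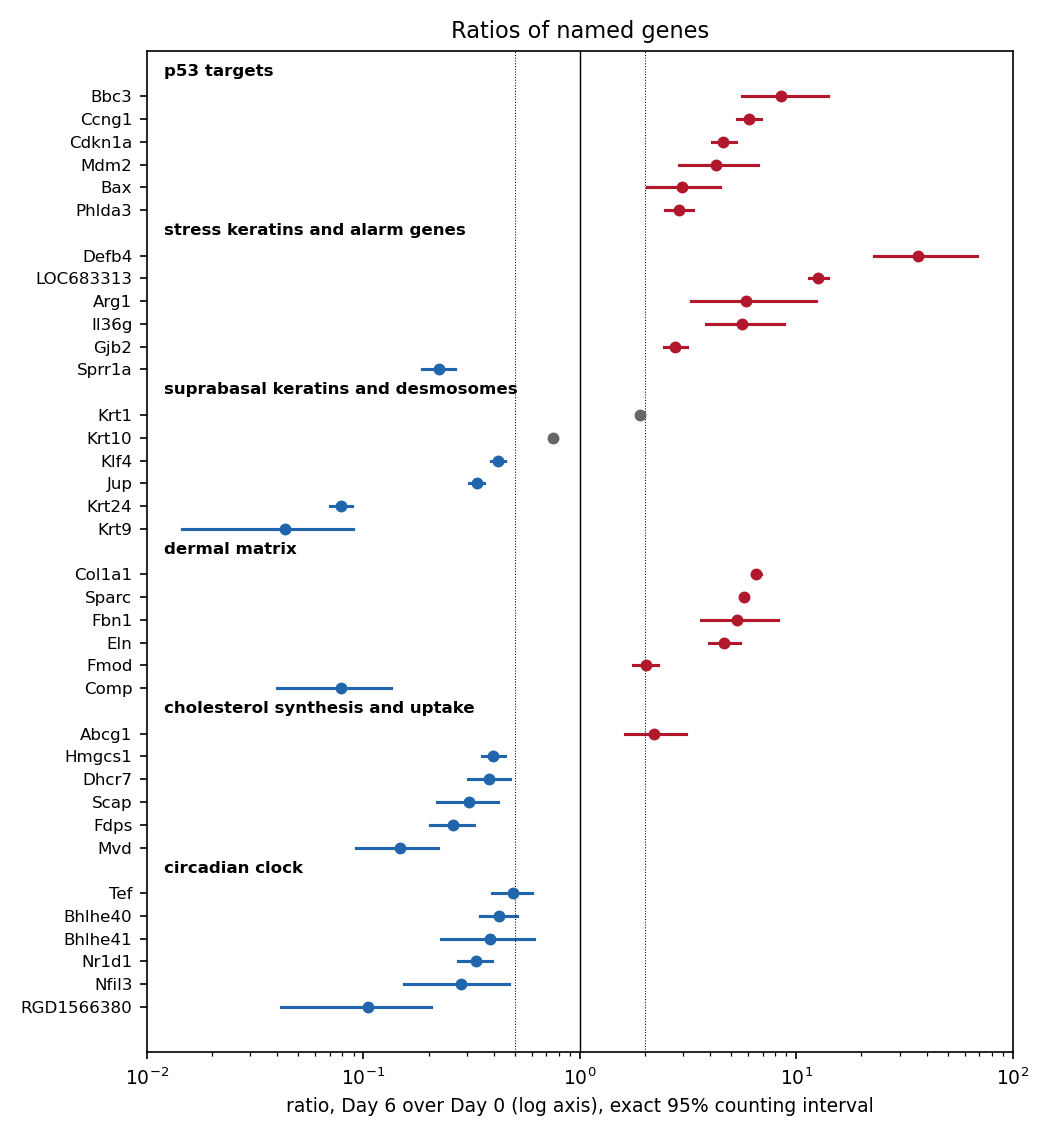
Ratios of Day 6 over Day 0 (x axis, log scale) for 6 genes from each of 6 lists, with exact 95% counting intervals. Red genes are higher, blue genes lower and grey genes neither by the size rule. Defb4 lies furthest right at 36.6, Krt9 furthest left, and Sprr1a, Krt1, Comp and Abcg1 each lie on the other side of 1 from the rest of their list shown.

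Vessel and macrophage genes were often higher in the Day 6 library, with no lower member at the count floor in either list. Of 15 endothelium and pericyte genes 5 were higher, 33.3% against 7.54% over all genes. The list summed to 1524 CPM on Day 6 against 811.5 CPM on Day 0. Sele, the E-selectin that inflamed endothelium shows to leukocytes, had 211 counts against 66, 3.27-fold (2.49 to 4.41) higher. Lyve1, a marker of lymphatic vessels and some macrophages, was 2.96-fold (2.43 to 3.65) higher. Pecam1, which all endothelium carries, had 20 counts against 30. Hbb, a globin of red blood cells, had 104 counts against 35 and was 3.03-fold (2.07 to 4.63) higher, and its part in the result was not tested. Of 14 macrophage genes 5 were higher, or 35.7%, and the list summed to 2062 CPM against 1185 CPM. Folr2 and Cd163, markers of resident macrophages, had 335 and 110 counts on Day 6 against 83 and 22 on Day 0, 4.14-fold (3.26 to 5.35) and 5.05-fold (3.24 to 8.55) higher. Cd14, a receptor for bacterial lipid, had a ratio of 1.64. The call of Cd68 depends on whether tags that are in no gene are added. The tags listed under Cd68 had 67, 75 and 17 copies on Day 6 against 33, 20 and 4 on Day 0. An unassigned tag 1 base from the first had 1381 copies on Day 6 and 1737 on Day 0. With such tags added the ratio is 0.88 (0.82 to 0.94), and whether they belong to Cd68 was not tested.

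Other immune cells left few counts on both days. Of 3 lymphocyte genes at the count floor none passed, and Cd3e, the T cell receptor subunit, had 0 counts on Day 6 against 10 on Day 0. The neutrophil granule gene Ngp had 0 against 9. None of 6 mast cell genes passed, with Cpa3 at 1.87-fold (1.45 to 2.42) and Cma1 at a ratio of 0.57 (0.38 to 0.82). Antigen presentation genes had 3 lower of 10, among them RT1-A3, a class I gene, with 178 counts against 775.

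Complement genes were often higher on Day 6, 8 of 21 with clotting genes included and 1 lower. The share higher was 38.1% against 7.54% over all genes. C1r and C1s, the proteases that start the classical pathway, were 2.60-fold (2.31 to 2.93) and 2.89-fold (2.44 to 3.44) higher. Gas6, a ligand of receptors that clear dying cells, had 1619 counts on Day 6 against 486 on Day 0. Among cytokines and chemokines 5 of 18 were higher and 2 lower. The chemokines Ccl21, which guides cells to lymphatics, and Cxcl12 were 2.46-fold (2.16 to 2.81) and 2.38-fold (1.66 to 3.51) higher, and Cxcr7, a scavenging receptor of Cxcl12, was 3.22-fold (2.37 to 4.51) higher. Il1r2, the decoy receptor of interleukin 1, was 3.21-fold (2.38 to 4.43) lower, and Mif 2.45-fold (2.16 to 2.78) lower. Of 5 interferon response genes 1 was higher, Dtx3l, at 2.29-fold (1.46 to 3.76).

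**Figure D4:**
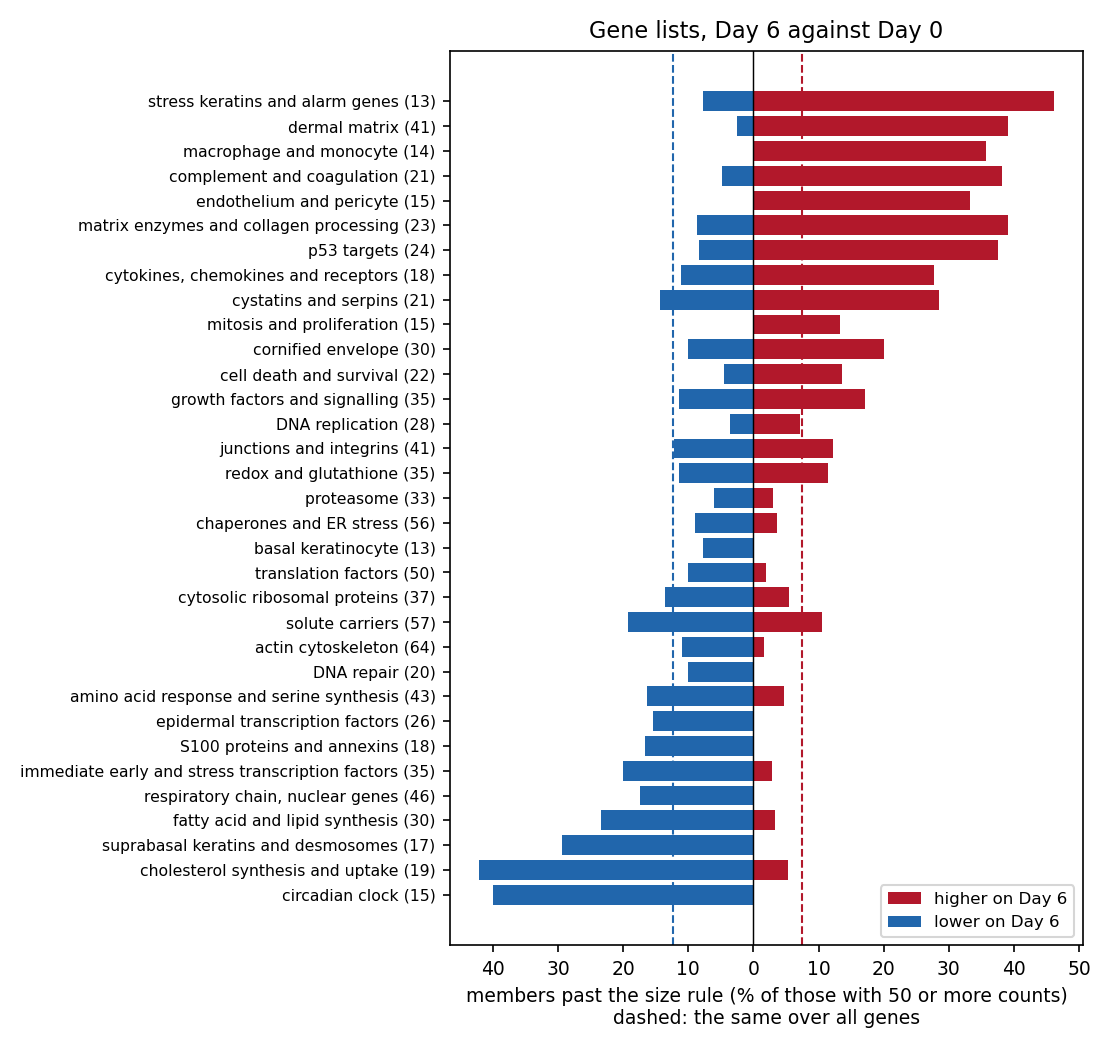
Percent of each list's members past the size rule, higher on Day 6 to the right and lower to the left, with the number of members at the count floor in brackets. Dashed lines mark the same over all genes, 7.54% higher and 12.4% lower. Alarm, matrix, macrophage, complement and endothelium lists stand at the top and the clock and cholesterol lists at the bottom.

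Genes of cholesterol synthesis were often lower on Day 6, with 8 lower and 1 higher of 19 genes and a median log2 ratio of -0.48. The share lower was 42.1% against 12.4% over all genes. The lower genes span the pathway. Hmgcs1, its first committed step, had 383 counts on Day 6 against 989 on Day 0, 2.51-fold (2.23 to 2.83) lower. Mvk and Mvd, which phosphorylate and decarboxylate mevalonate, were 2.28-fold and 6.76-fold lower, and Mvd had 26 counts against 184. Fdft1, the squalene synthase, was 2.32-fold lower and Ebp, a late isomerase, 3.06-fold (1.98 to 5.02) lower. Scap, which escorts the sterol regulator Srebf2, was 3.27-fold (2.40 to 4.57) lower. Srebf2 itself had a ratio of 0.84 (0.71 to 1.00). The higher gene was Abcg1, a sterol exporter, at 2.21-fold (1.61 to 3.08). Fatty acid genes had 7 lower and 1 higher of 30, among them Hsd17b12, an enzyme of chain elongation, 3.31-fold (2.54 to 4.39) lower, and Acsl1, an acyl-CoA synthetase, 2.23-fold (1.78 to 2.83) lower.

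Many promoters of the cholesterol list hold a CCAAT box, and 2 are shown, from the lower genes Hmgcs1 and Fdps. The main tag of Fdps had 91 copies on Day 6 against 360 on Day 0. Sequences are RefSeq promoters of GRCr8, 250 bases before to 50 after the start, with CCAAT boxes or their reverse ATTGG in capitals.
Hmgcs1, chr2:53382054-53382353, plus strand: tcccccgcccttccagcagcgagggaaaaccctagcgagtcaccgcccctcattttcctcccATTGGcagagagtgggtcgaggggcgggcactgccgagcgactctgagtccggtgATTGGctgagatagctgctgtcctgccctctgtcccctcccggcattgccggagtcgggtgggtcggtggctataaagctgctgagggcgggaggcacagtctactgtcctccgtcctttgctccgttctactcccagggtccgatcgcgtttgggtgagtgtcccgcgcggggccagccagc
Fdps, chr2:176804767-176805066, minus strand: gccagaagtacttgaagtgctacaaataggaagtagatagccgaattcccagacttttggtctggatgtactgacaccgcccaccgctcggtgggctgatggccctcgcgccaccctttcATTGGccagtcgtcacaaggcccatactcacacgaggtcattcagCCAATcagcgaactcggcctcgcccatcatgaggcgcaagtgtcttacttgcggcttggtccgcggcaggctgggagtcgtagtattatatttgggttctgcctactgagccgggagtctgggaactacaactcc
A CCAAT box on either strand was found in 19 of 27 promoters of the list, or 70.4%, and in 37.7% of all 27457 promoters in the table. Of the lower genes 7 had a promoter there and 5 of these held the box, a share close to that of the list. A match describes the letters and not the binding of a factor. Any part of the box in the lower counts was not tested.

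Genes of the circadian clock were often lower on Day 6, with 6 lower and none higher of 15 and a median log2 ratio of -0.54. The share lower was 40% against 12.4% over all genes. The lower genes belong to the negative arm and the output of the loop. Nr1d1, the nuclear receptor REV-ERB alpha, had 165 counts on Day 6 against 516 on Day 0. RGD1566380, known as Ciart in the reference table, had 8 counts against 83, 9.55-fold (4.88 to 24.1) lower. Bhlhe40 and Bhlhe41, E-box repressors, were 2.38-fold (1.96 to 2.90) and 2.60-fold (1.62 to 4.39) lower. Dbp, an output factor, had a ratio of 0.65 (0.59 to 0.71) and Per2 of 0.60 (0.42 to 0.85). All 6 lower genes also stood below Day 0 in the Day 3 and Day 9 libraries: Nr1d1 had 257.5, 85.4, 84.8 and 121 CPM on Days 0, 3, 6 and 9, and Nfil3, an antagonist of Dbp, had 33.4, 12.9, 9.25 and 15.7 CPM. The hour of collection is not stated, so hour and irradiation cannot be told apart. The promoter of RGD1566380 is shown because it holds 3 copies of CACGTG, the E-box that clock factors bind.
RGD1566380, chr2:186112197-186112496, minus strand: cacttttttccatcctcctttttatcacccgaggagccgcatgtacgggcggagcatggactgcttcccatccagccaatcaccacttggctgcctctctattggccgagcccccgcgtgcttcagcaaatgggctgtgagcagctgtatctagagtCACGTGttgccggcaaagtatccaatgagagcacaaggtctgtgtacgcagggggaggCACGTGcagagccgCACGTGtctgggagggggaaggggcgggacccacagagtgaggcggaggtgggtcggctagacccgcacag
The word CACGTG, which reads the same on both strands, stood in 4 of 22 promoters of the clock list, or 18.2%, against 6.65% of all promoters. All 4 belong to the lower genes, which have 6 promoters in the table.

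Immediate early and stress regulators were lower in 7 of 35 cases and higher in 1, with a median of -0.34. Fosb, an AP-1 subunit, had 7 counts on Day 6 against 60 on Day 0. Rela, a subunit of NF-kappa-B, had 25 against 140, 5.35-fold (3.54 to 8.69) lower, and its inhibitor Nfkbia 151 against 510, 3.27-fold (2.73 to 3.96) lower. Jund and Zfp36, which shortens the life of cytokine messages, were 4.10-fold and 4.39-fold lower. Fos, Jun, the nuclear receptor Nr4a1 and the phosphatase Dusp1 did not pass, with ratios of 0.79 (0.52 to 1.20), 0.73 (0.56 to 0.94), 1.16 (0.85 to 1.59) and 1.39 (1.16 to 1.68).

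Actb, the reference gene for beta-actin, was lower, but most of its family was not. Of 64 actin cytoskeleton genes 7 were lower, 1 was higher and the median was 0.01. Actb stood at 450.1 CPM on Day 6 against 1920 CPM on Day 0, and 1 tag carried the difference, with 849 copies against 3789. Arpc5, a subunit of the branching complex, was 3.60-fold (2.76 to 4.82) lower and Flna, filamin, 2.90-fold (2.42 to 3.51) lower. Tagln, an actin-binding protein of smooth muscle and myofibroblasts, was the higher member at 2.32-fold (1.94 to 2.78). Junction genes were even, with 5 higher and 5 lower of 41, or 12.2% each, against 7.54% and 12.4% over all genes. Jam2, a junction protein of vessels, was 3.30-fold (2.09 to 5.53) higher, and Sdc1, syndecan of keratinocytes, 2.25-fold (2.06 to 2.44) lower.

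In the housekeeping lists most members met neither side of the rule. Of 37 cytosolic ribosomal protein genes 5 were lower, 2 higher and 30 neither, with a median of -0.21. Rps13, Rps19 and Rps27 were 5.55-fold (5.10 to 6.06), 4.16-fold (3.82 to 4.52) and 3.67-fold (3.51 to 3.84) lower, while Rpl11, which can also restrain Mdm2, had 5391 counts against 1626 and was 3.41-fold (3.23 to 3.61) higher. Ribosomal proteins have many near-identical pseudogenes, so their counts are uncertain. The nuclear respiratory chain list had a median of -0.25, and 8 of its 46 genes were lower and none higher. Atp5g2, a ring subunit of ATP synthase, was 7.32-fold (6.16 to 8.79) lower and Uqcrfs1, the iron-sulfur protein of complex III, 5.15-fold (3.74 to 7.37) lower. Of 33 proteasome genes 2 were lower and 1 was higher, and of 50 translation factors 5 were lower and 1 was higher, with medians of -0.011 and 0.016. Eif6, which joins ribosome assembly to translation, was 5.39-fold (4.02 to 7.46) lower.

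Redox genes had 4 higher and 4 lower of 35. Gsta3, a glutathione transferase, had 803 counts on Day 6 against 175 on Day 0, 4.71-fold (4.01 to 5.60) higher, while Mgst3, a membrane-bound transferase, was 5.35-fold (4.22 to 6.94) lower. Of 56 chaperone genes 5 were lower and 2 higher. Hspb6, a small heat shock protein abundant in muscle, had 12 counts against 292, and the muscle loss described above runs beside it. Ubb, a polyubiquitin gene, stood at 160.2, 94.8, 785.6 and 871.1 CPM on Days 0, 3, 6 and 9, low in the first pair of libraries and high in the second. Amino acid genes had 7 lower and 2 higher of 43, with Srm, spermidine synthase, 7.31-fold (5.25 to 10.7) lower. Slc7a1, a carrier of arginine and lysine, was 2.96-fold (2.33 to 3.80) higher and stood at 45.9, 62.6, 136.1 and 63.9 CPM on Days 0, 3, 6 and 9. Slc11a1, an iron transporter of macrophages, was 3.36-fold (2.80 to 4.07) higher, and Slc2a4, the insulin-regulated glucose carrier of fat and muscle, 4.94-fold (3.45 to 7.45) lower. In all 6 solute carriers were higher and 11 lower of 57.

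Other genes with wide ratios were mixed in kind. Sts, steroid sulfatase, which acts on cholesterol sulfate in the epidermis, had 461 counts on Day 6 against 6 on Day 0, 73.0-fold (36.1 to 216.7) higher. Its levels on Days 0, 3, 6 and 9 were 2.99, 146, 236.8 and 14.1 CPM. On Days 3 and 6 they rested mostly on 1 tag, with 2, 286, 437 and 7 copies on Days 0, 3, 6 and 9. A second Sts tag had 2, 0, 12 and 10 copies. C1qtnf6, a secreted protein with a C1q domain, was 7.77-fold (4.58 to 15.2) higher and Itm2a, a membrane protein, 6.58-fold (4.22 to 11.2). Ebna1bp2, a factor of ribosome assembly, was 6.42-fold (3.98 to 11.5) higher and stood at 8.98, 8.44, 59.1 and 65.0 CPM on Days 0, 3, 6 and 9. Scara5, a scavenger receptor of fibroblasts that takes up ferritin, had 388 counts against 84, 4.73-fold (3.75 to 6.09) higher. Fam83h, which shapes the keratin skeleton, had 44 counts on Day 6 against 415 on Day 0 and was 9.07-fold lower. Rhov, a small GTPase, had 14 counts against 160, and Sec24c, a coat protein of transport vesicles, had 16 against 171. Ube2m, which conjugates NEDD8, had 95 against 672 and Ly6d, a surface protein of differentiating keratinocytes, 83 against 466. Day 6 was the lowest library for Rhov, Sec24c and Ly6d: on Days 0, 3, 6 and 9 Rhov had 160, 36, 14 and 147 counts, Sec24c 171, 33, 16 and 81, and Ly6d 466, 177, 83 and 686.

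The composition of the tags moved with the lower genes. Among genes with 30% or less G and C after the CATG of the most abundant tag, 7.94% were higher and 7.25% lower, and among those over 60% G and C, 5.56% were higher and 18.5% lower. The median log2 ratio was 0.17 in the first class and -0.13 in the last. Lower genes had a median of 47.1% G and C in this tag, against 41.2% among higher genes. Its part in the counts of lower genes was not tested.

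**Figure D5:**
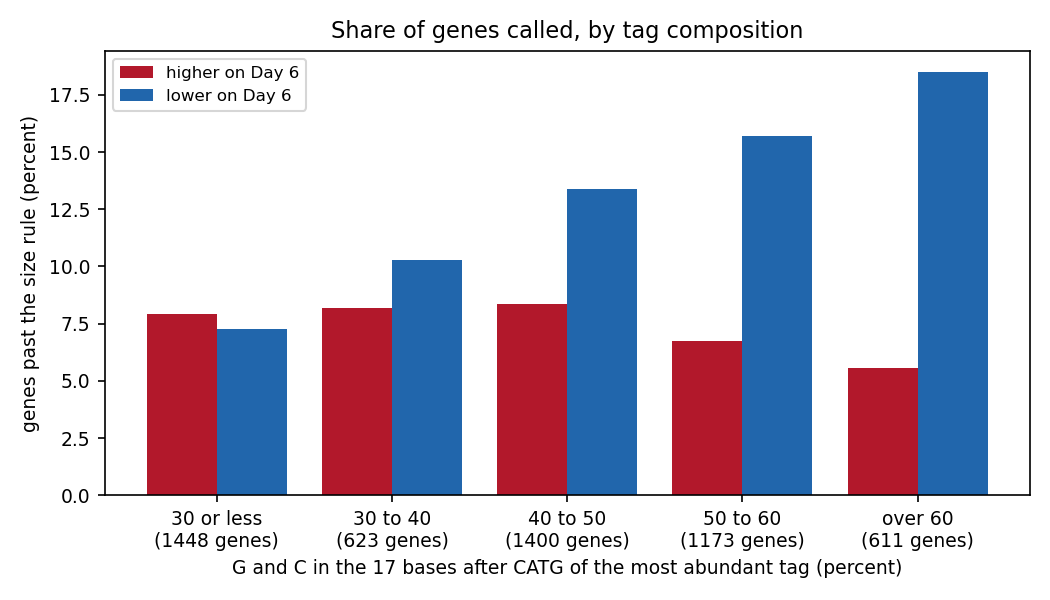
Percent of genes higher (red) and lower (blue) on Day 6 in 5 classes of G and C content of the most abundant tag (x axis, percent). The lower share climbs from class to class, 7.25% in the first and 18.5% in the last, and the higher share lies between 5.56% and 8.36%.

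The tags of the libraries also differed in sequence. Among 191 pairs of tags of 1 gene that differ by 1 base, each with at least 30 copies in a library, 181 had enough copies on both days. Both forms were present on both days in 59 of these pairs and the same single form in 80. Both groups include rare tags 1 base from a very abundant one, and sequencing errors were not set apart from true forms. In S100vp, 1 pair had 87543 and 34 copies on Day 6 and another had 99 and 32. In 21 pairs Day 6 had 1 form and Day 0 both, in 12 pairs the reverse, and in 9 pairs the days had opposite forms. A form was taken as missing where it made up at most 5% of the pair. Where both forms were present in a library they were often near equal, as in Mgp, with 112 and 0 copies on Day 6 against 140 and 134 on Day 0, and Cyb5r3, with 203 and 0 against 130 and 131. The opposite pairs are shown for Adh7 and Pcmtd2 and for an entry that the files describe as cytochrome oxidase subunit I, which is encoded in mitochondrial DNA. Each was chosen after its values were seen, and capitals after the CATG mark the base that differs.
Adh7, first form: CATGtacacacacgtaataTt
Adh7, second form: CATGtacacacacgtaataGt
Pcmtd2, first form: CATGgGtaaacacaaatgaat
Pcmtd2, second form: CATGgAtaaacacaaatgaat
Cytochrome oxidase subunit I, first form: CATGgatgccccccaccTtac
Cytochrome oxidase subunit I, second form: CATGgatgccccccaccCtac
The substitutions are T20G, G6A and T18C. The mitochondrial tag had 17768 copies of the first form and 3 of the second on Day 6, against 0 and 5387 on Day 0. Day 3 and Day 9 carried the first form as Day 6 did, with 36837 and 31532 copies. Pcmtd2 had 188 and 0 copies on Day 6 against 0 and 148 on Day 0, so that its forms traded places while the gene's ratio was 1.30 (1.08 to 1.58). Adh7, an alcohol and retinol dehydrogenase of epithelium, had 269 and 0 copies against 0 and 95. Whether each library came from 1 animal was not tested.

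Some genes had steep ratios that rested wholly or mostly on 1 tag, with no second form found. Ddx39b, Gnl1 and Abhd16a, all genes of the major histocompatibility region, are shown with their tags because the Day 0 and Day 3 libraries read one way and the Day 6 and Day 9 libraries the other.
Ddx39b: CATGcctctctgcgtcaccac
Gnl1: CATGgaggcagctgtggcgtg
Abhd16a: CATGgaagctcccagctcccc
On Days 0, 3, 6 and 9 the Ddx39b tag had 458, 477, 0 and 0 copies, the Gnl1 tag 105, 27, 0 and 0, and the Abhd16a tag 0, 0, 114 and 73. A tag of RT1-Ba, a class II gene of the same region, followed the Abhd16a pattern with 0, 0, 171 and 216 copies, and its other tag had 222, 324, 3 and 244. Eif2s3y, a Y-linked gene, had 92 counts on Day 6 against 0 on Day 0, while Ddx3y, another Y-linked gene, had 469 against 1029. Of the 3 Y-linked genes with a count 2 had none on Day 0, so all Y-linked counts of that library came from Ddx3y. Whether the libraries differ in sex was not tested. No unassigned tag 1 base from the main tags of Ddx39b, Gnl1, Abhd16a and Eif2s3y was found in either library.

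Tags of 1 gene could part ways in other cases. Of 527 genes with 2 or more tags of at least 50 copies, 23 had tags past the size rule in opposite directions, and 9 of these were not a single base apart. Cox5b, a subunit of cytochrome oxidase, had 408 copies of the tag nearest its 3' end on Day 6 against 198 on Day 0, and 139 against 559 of the next tag, while its summed count gave a ratio of 0.74. Mrpl18, a mitochondrial ribosomal protein, had 290 against 78 and 66 against 154 copies. Tpm1, tropomyosin, was lower as a gene through 1 tag with 5 copies against 663, while the tag nearest its 3' end had 370 against 200. The lower Tpm1 tag had 663, 465, 5 and 700 copies on Days 0, 3, 6 and 9. The muscle loss described above runs beside it, and its part in the Tpm1 count was not tested. Of 36 higher genes with 2 or more such tags, 27 were higher in at least 2 of them, and of 38 lower genes 11 were lower in at least 2.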

How the data were processed

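The files hold whole counts per gene, deposited by the authors as summed copies of 21-base tags seen at least 2 times, and a deposited column that is in CPM, copies scaled to a common total of such tags, tested on the values. Counts were made on Rnor_6.0, per the submitters' processing notes; the tool that matched tags to genes is not given in the sources used here. Genes were joined by identifier, of which 11471 were numeric and 7486 UniGene entries alone, and 11247 were found in the RefSeq table. There were 2 matches through a synonym (Tnnt2 for Tnnt3, Ms4a2 for Ms4a1) that named another gene, and they were left out. Libraries were scaled by TMM (edgeR 4.0.16 in R 4.3.3; factors 0.989 on Day 6 and 1.01 on Day 0). The ratio adds 0.5 to each count, and its 95% interval is the exact Clopper-Pearson one, computed with scipy 1.17.1. It covers counting error only, since tags carry no molecular identifiers. A gene at 0 was set to 3 counts for a bound. Summed levels and CPM of genes are on the TMM scale. For list medians, members needed 10 counts on average.

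Depth was 3556566 sequenced tags on Day 6 and 3592019 on Day 0. The scripts were tested on simulated data.

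The members and lists were chosen with earlier results of these data known. The named genes were the 20 with the interval bound furthest from 1 in each direction, up to 6 members of each list, the 10 largest changes in CPM each way, and a set of skin, p53, actin and muscle genes. Other genes named, mostly list members near 1 or read beside a named partner, were picked with their values in view, and so were the tag forms and the tags of opposite direction. Alternatives were other scalings, priors, count floors, the most abundant tag alone and centring by tag GC. A few members of the lists are not reported here, though the counts of the lists include them.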

Additional observations from a re-analysis of the deposited data

Results flagged for a closer look

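Tags that stand in no gene made up 42.9% of the tags seen at least 2 times on Day 6 and 43.1% on Day 0. The gene counts and calls above leave them out. Only the second ratio given for Cd68 and the search for near-identical tags above used them. Of 2827 such tags with at least 50 copies on the higher day, 381 were higher on Day 6 and 382 lower, 13.5% each. Of the higher ones, 16 had no copy on Day 0, which marked them for a closer look as signal outside the genes. Another 22 had no copy on Day 6. The genes behind these tags were not analysed here.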

How the results depend on the processing

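The number of genes past the rule depended on its limits. Higher genes numbered 882 with a floor of 10 counts, 127 with 200, 1030 with none and 168 where the interval had to leave out 2-fold, against 396. Lower genes numbered 1417, 178, 1617 and 332 under the same limits, against 654, and 357 among tags with 50% or less G and C, where fewer genes are tested and 283 were higher. With all genes kept and centred by tag GC, 415 were higher and 631 lower, 358 and 597 of them shared with the calls above. Both GC settings were chosen after seeing the data. Across all alternatives the higher genes made up 33.6% to 44.2% of the calls. For 248 named genes under the alternative scalings, priors and tag choices, 2188 of 2232 values kept their call or stayed uncalled. Another 30 lost a call, 14 gained one and 0 turned direction. A gene that stayed uncalled counted as unchanged, even where its ratio crossed 1. The 41 list medians gave 491 values under the alternatives, of which 467 stayed close, 20 shifted further and 4 turned sign. A median near 0 was not counted as turned. Mast cell turned to -0.11 and basal keratinocyte to 0.081 with at least 50 mean counts. Basal keratinocyte also turned to 0.045 when centred by tag GC, and solute carriers to -0.0072 as a mean. The cause was not tested. No paired analysis was possible because each day has 1 library. For the same reason no library could be left out and edgeR and DESeq2 gave no test. At this depth genes under 50 counts were not called.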
